A study of Mus musculus with 4 samples.

Results

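The receptors of transforming growth factor beta (TGF-beta) and the SMAD proteins that carry its signal were examined in regulatory T (Treg) cells stimulated with thymic stromal lymphopoietin (TSLP). They were chosen by name, as Tgfbr1, Tgfbr2, Tgfbr3, Smad2, Smad3, Smad4, Smad7, Ski, Skil and Tgif1, and all 10 were found among the 24418 genes listed. The cells had been sorted as CD4+ YFP+ from spleen and lymph nodes. The donors were mice of the Foxp3YFP-Cre line, in which the Foxp3 locus drives a yellow fluorescent protein fused to a Cre recombinase. The mice used in the study were 8 to 12 weeks old, and both groups carried the same allele. The cells were held for 3 h with 100 ng/mL TSLP, an epithelial cytokine of the interleukin-7 family, or with PBS as the control. There were 2 samples per group, named PBS 1, PBS 2, TSLP 1 and TSLP 2, and the labels do not say whether they came from separate animals. The p-values therefore measure only the spread between these samples, which may be technical. The depth was 11328132 and 10724392 reads on genes for the PBS libraries, and 11761234 and 10271571 for the TSLP libraries. Here and below, a pair of values for a group is replicate 1 and then replicate 2.

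TGF-beta binds a type II receptor (Tgfbr2), which activates a type I receptor (Tgfbr1), and the type I receptor phosphorylates SMAD2 and SMAD3. These join SMAD4 and enter the nucleus, while SMAD7 blocks the receptor and the products of Ski, Skil and Tgif1 repress SMAD-driven transcription. In T cells the pathway is known for inducing Foxp3 in peripheral Treg cells and for holding back effector programmes.

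For none of the 10 genes did the test across all genes separate the TSLP group from the PBS group. By limma on log2(normalised count + 1), with Benjamini-Hochberg adjustment over the 11392 genes that reached a normalised count of 10 in 2 or more libraries, 0 of the 10 members had an adjusted p under 0.05, against 0.00% of all genes tested. An unadjusted p under 0.05 was found for 0 of the 10, against 1.69% of all genes tested. By edgeR and DESeq2 on the recovered reads, 0 members had an unadjusted p under 0.05 as well, against 234 of the 11392 genes by each. The log2 fold changes (TSLP against PBS) lay between -0.26 for Smad2 and 0.38 for Smad4. The median over the members was 0.11, with 7 higher and 3 lower with TSLP, beside a median of 0.01 over all genes tested. It was 0.05 with a trend over gene length removed, 0.07 without PBS 1, 0.24 without PBS 2, and 0.005 without TSLP 1, when 5 were higher and 5 lower. The smallest adjusted p over all genes tested was 1.0 by limma, so only unadjusted p-values are given below. Because of the added 1, differences of genes with few reads come out slightly too small. Where a library had 0 reads, the added 1 largely sets the size of the difference instead.

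The promoters of Tgfbr2 and Tgif1 are shown as examples of members whose promoters hold the SMAD box, CAGAC or its reverse complement GTCTG, the short site that SMAD3 and SMAD4 bind. Both are from RefSeq (build GRCm38.p6, the same assembly as mm10), read 5′ to 3′ on the minus strand as the 250 bases before the start site, with the SMAD box in capitals. That of Tgfbr2 lies at chr9:116175364-116175613 and that of Tgif1, the most upstream of its 5 start sites in the table, at chr17:70853533-70853782.

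Tgfbr2: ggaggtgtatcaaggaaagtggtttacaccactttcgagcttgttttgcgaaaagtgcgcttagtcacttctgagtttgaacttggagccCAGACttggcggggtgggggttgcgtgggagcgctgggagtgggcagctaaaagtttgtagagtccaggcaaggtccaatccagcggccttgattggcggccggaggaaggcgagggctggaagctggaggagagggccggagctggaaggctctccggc

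Tgif1: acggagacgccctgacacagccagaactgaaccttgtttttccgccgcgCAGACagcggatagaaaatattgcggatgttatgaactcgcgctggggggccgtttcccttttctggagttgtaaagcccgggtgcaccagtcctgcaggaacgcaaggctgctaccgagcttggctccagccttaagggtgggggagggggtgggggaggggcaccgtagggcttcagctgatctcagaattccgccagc

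Counted from the start site, the match began at position -160 in Tgfbr2 and at position -201 in this window of Tgif1. Windows from 250 bases before to 50 bases after a start site were listed for Tgfbr1, Tgfbr2, Smad3, Ski and Tgif1. The other members had no window listed, and Tgif1 alone had 5 of the 10 windows. A SMAD box was present in 5 of the 10, among them 1 of the 2 windows of Tgfbr1 (at position -203). These 5 came from 3 members, and 49.6% of all 32851 mouse windows held a SMAD box. The STAT motif TTCNNNGAA, searched because TSLP signals through STAT5, was present in 1 of the 10, another window of Tgif1, and in 8.3% of all windows. A match describes the letters in the window and not a bound site.

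The levels of the genes were compared as RPKM, the reads per kb of exon scaled to the reads on genes of the library, which allows genes of different length to be set side by side. Tgif1 had the highest mean level over the 4 libraries, at an RPKM of 70.6 ± 8.81 (SD, n = 4), followed by Ski at 65.2 ± 7.08, Smad7 at 57.0 ± 9.34, Skil at 55.7 ± 6.36 and Smad4 at 44.5 ± 7.43. These are, but for Smad4, the genes whose products restrain the pathway. Tgfbr2 followed at 34.7 ± 4.52, Tgfbr1 at 25.3 ± 3.83, Smad3 at 16.5 ± 3.06, Smad2 at 8.92 ± 1.22 and Tgfbr3 at 3.01 ± 0.839. From Tgif1 down to Tgfbr2, each gene overlapped the next in the order over the 4 libraries, as did Tgfbr1 and Smad3. Tgfbr2 lay above Tgfbr1, Smad3 above Smad2 and Smad2 above Tgfbr3 in every library. Tgif1 lay above 94.6% of the genes tested and Tgfbr3 above 31.6%. With the longest transcript as the length, Tgif1 stayed first at 126.3 and Skil moved from the 4th place to the 2nd, at 80.4.

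**Figure D1:**
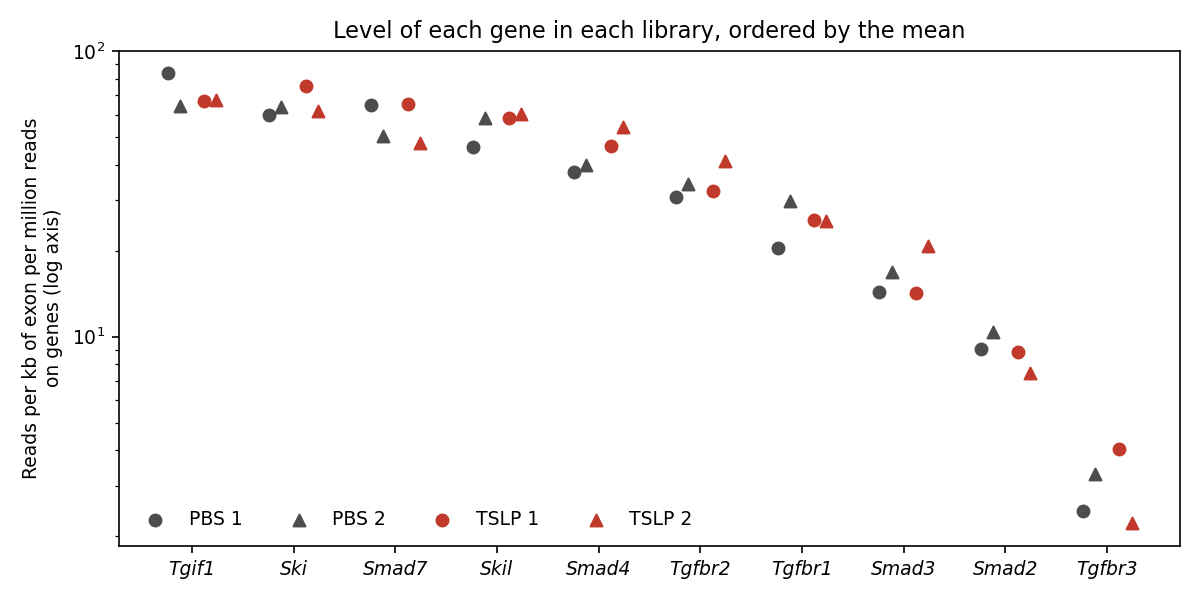
Level of each gene (RPKM, log axis) in the 4 libraries, ordered by the mean (grey, PBS; red, TSLP; circles, replicate 1; triangles, replicate 2). The 5 genes on the left lie between 37.6 and 83.7, Tgfbr3 lies between 2.22 and 4.05, and the colours are mixed in most genes.

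Among the receptors, Tgfbr1 encodes the type I receptor kinase and lies on chromosome 4 of mm10 from 47353222 to 47414931, on the plus strand. Its normalised counts, which are reads divided by a size factor per library, were 1468 and 2091 in the PBS libraries, against 1853 and 1782 in the TSLP libraries. Both TSLP libraries lay between the PBS libraries. The difference as a log2 fold change was 0.05 (standard error 0.24, 95% interval -0.49 to 0.60, unadjusted p = 0.833 by limma), and -0.20 without PBS 1.

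Tgfbr2 encodes the type II receptor that binds the ligand (chromosome 9, 116084293 to 116175360, minus strand). Its normalised counts were 2777 and 3001 in the PBS libraries, against 2943 and 3616 in the TSLP libraries. The groups overlapped, since TSLP 1 lay below PBS 2. As a log2 fold change this was 0.18 (standard error 0.22, 95% interval -0.32 to 0.67, by limma), and it was 0.03 without TSLP 2.

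Tgfbr3 encodes betaglycan, a co-receptor without a kinase domain that presents TGF-beta to the type II receptor (chromosome 5, 107106570 to 107289629, minus strand). It was the least read member, with normalised counts of 176 and 232 in the PBS libraries, against 294 and 156 in the TSLP libraries. The highest and the lowest of the 4 values were both from the TSLP group. Its log2 fold change of 0.08 had the widest 95% interval of the members, -0.89 to 1.05 by limma, which in folds is 0.539 to 2.08. It was -0.12 without PBS 1 and -0.38 without TSLP 1. A short unclassified gene on the same strand, Gm43422, shares exonic bases with Tgfbr3 in the GENCODE annotation, so that the assignment of reads there is uncertain. Gm43422 is not among the genes listed, so the annotation used for counting may not have held it.

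Smad2 and Smad3 encode the SMADs that the type I receptor phosphorylates. Smad2 (chromosome 18, 76241580 to 76310963, plus strand) had normalised counts of 873 and 979 in the PBS libraries, against 857 and 700.2 in the TSLP libraries. Both TSLP libraries lay below both PBS libraries, and TSLP 1 did so by little. Its log2 fold change was -0.26 (standard error 0.24, 95% interval -0.81 to 0.30, unadjusted p = 0.321 by limma), and -0.11 without TSLP 2.

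Smad3 (chromosome 9, 63646767 to 63757994, minus strand) had normalised counts of 870.4 and 1008 in the PBS libraries, against 870.5 and 1231 in the TSLP libraries. TSLP 1 was level with PBS 1, while TSLP 2 was the highest library. As a log2 fold change this was 0.14 (standard error 0.26, 95% interval -0.44 to 0.73, by limma), and -0.11 without TSLP 2. The ratio of Smad3 to Smad2 per kb of exon, taken within a library so that no scaling between libraries enters, was 1.58 and 1.63 in the PBS libraries, against 1.61 and 2.79 in the TSLP libraries. TSLP 2 alone stood apart in this ratio.

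Smad4 encodes the common partner that joins the phosphorylated SMADs, and it had the largest difference of the 10 genes. It lies on chromosome 18 from 73639009 to 73703780, on the minus strand. Its normalised counts were 1530.4 and 1590 in the PBS libraries, against 1908 and 2157 in the TSLP libraries. The TSLP libraries were both above the PBS libraries, and Smad4 was the only member in which the difference between the groups exceeded the gap between replicates in each group. The PBS mean was 1560.1 ± 41.98 and the TSLP mean 2032 ± 176 (SD, n = 2 each), a fold of 1.30 with a 95% interval of 0.930 to 1.82. The log2 fold change of 0.38 (standard error 0.21) did not pass the test, with an unadjusted p of 0.110 by limma. With any single library left out it lay between 0.29 and 0.47. The ratio of Smad4 to the sum of Smad2 and Smad3 per kb of exon was 1.61 and 1.46 in the PBS libraries, against 2.02 and 1.92 in the TSLP libraries. This ratio did not overlap between the groups, unlike the other 7 ratios between members that were computed. The ratios were chosen after the values were seen and were not tested, and with 2 samples against 2 a two-sided exact permutation test cannot give a p below 0.333.

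Smad7 encodes the inhibitory SMAD that recruits ubiquitin ligases to the receptor and is itself a known target of the pathway (chromosome 18, 75367529 to 75395935, plus strand). Its normalised counts were 3207 and 2445 in the PBS libraries, against 3273 and 2303 in the TSLP libraries. Replicate 1 was the higher library in both groups, by 0.39 in the PBS pair and 0.51 in the TSLP pair as log2 ratios, and the group means nearly coincided. Its log2 fold change was -0.03 (standard error 0.26, 95% interval -0.61 to 0.55, by limma). It was 0.17 without PBS 1 and 0.23 without TSLP 2.

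The last 3 members encode transcriptional repressors. Ski, a co-repressor that binds SMAD complexes (chromosome 4, 155154075 to 155222592, minus strand), had normalised counts of 3656 and 3799.9 in the PBS libraries, against 4659 and 3690.1 in the TSLP libraries. TSLP 1 was the highest library and TSLP 2 lay between the PBS libraries. The resulting log2 fold change was 0.15 (standard error 0.22, by limma), and -0.01 without TSLP 1.

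Skil encodes SnoN, a relative of Ski that is also a known target of TGF-beta (chromosome 3, 31095058 to 31122577, plus strand). It was the most read member, with normalised counts of 4932 and 6042 in the PBS libraries, against 6236 and 6288 in the TSLP libraries. The TSLP libraries were the higher pair, close to each other, and PBS 1 was the library that stood apart. The log2 fold change of 0.20 (standard error 0.23, by limma) was 0.05 without PBS 1.

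Tgif1 encodes a homeodomain repressor that recruits histone deacetylases to SMAD complexes (chromosome 17, 70844205 to 70853546, minus strand). Its normalised counts were 5168 and 3891 in the PBS libraries, against 4158 and 4079.9 in the TSLP libraries. The PBS libraries enclosed the TSLP libraries. The log2 fold change was -0.12 (standard error 0.23, by limma), and 0.08 without PBS 1.

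**Figure D2:**
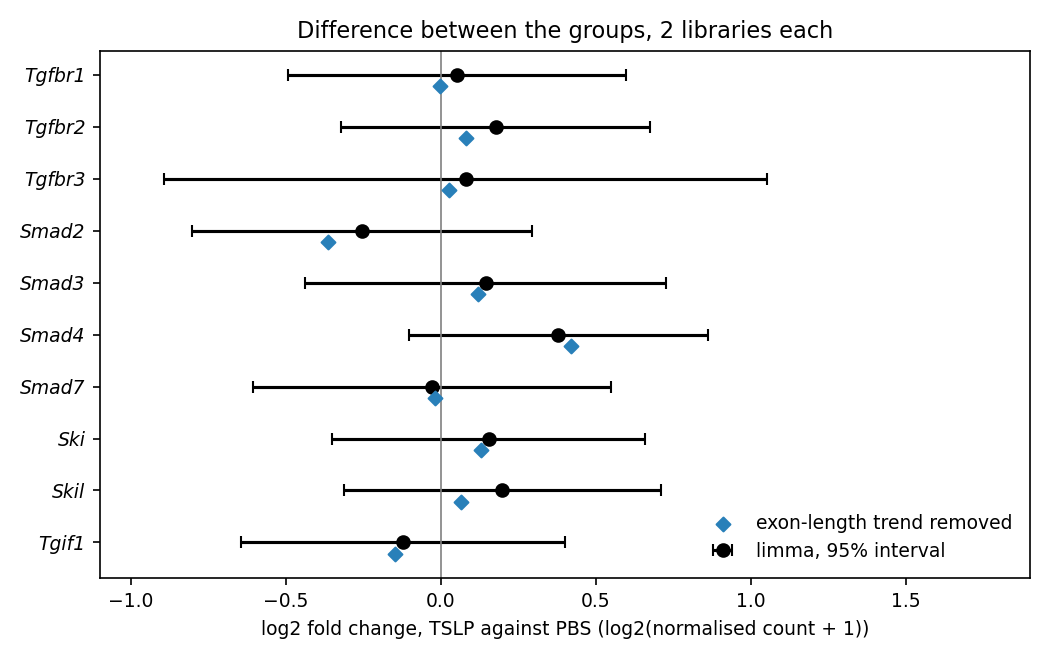
Log2 fold change of each gene, TSLP against PBS, with its 95% interval by limma (black, 2 libraries per group), and the value with the trend over exon length removed from each library (blue). Every interval includes 0, and that of Smad4, -0.10 to 0.86, lies farthest to one side.

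Among the 10 genes, 3 had groups that did not overlap, namely Smad4 and Skil with both TSLP libraries higher and Smad2 with both lower. This is 30.0%, beside 28.9% of all genes tested (14.5% with both TSLP libraries higher and 14.4% with both lower). In 9 of the 10 genes the gap between replicates of at least 1 group was larger than the difference between the groups, and this held for 83.3% of all genes tested. The size of a difference that these libraries would still allow was largest for Tgfbr3, and the 95% intervals of all 10 reached past 1.5-fold, upwards in 7 of them and downwards in Smad2, Smad7 and Tgif1, and in both directions in Tgfbr3.

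**Figure D3:**
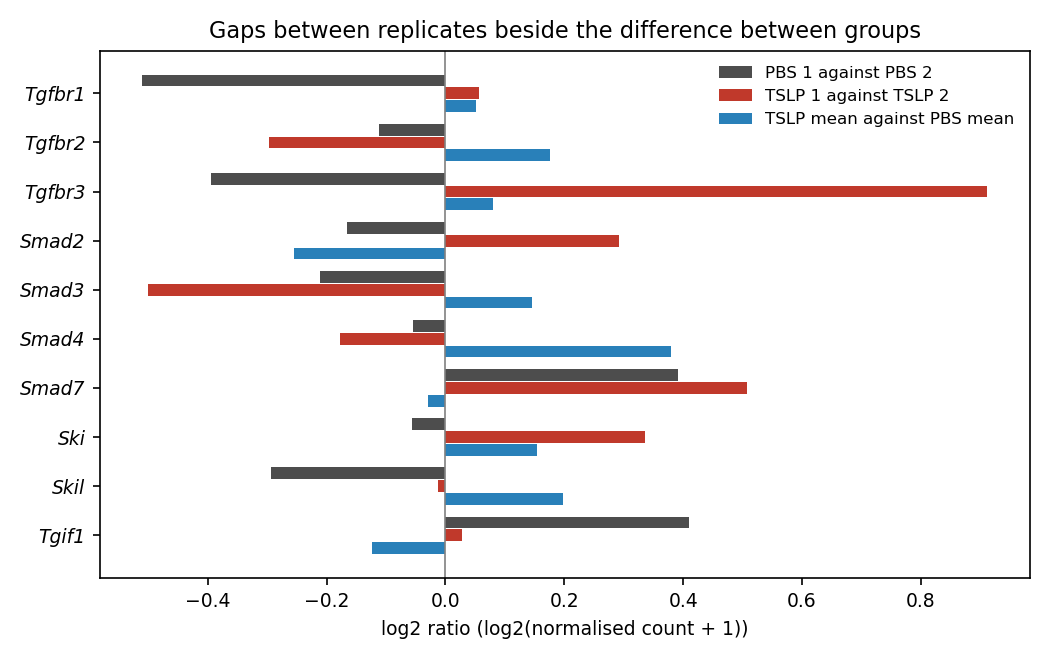
Log2 ratio of PBS 1 to PBS 2 (grey), of TSLP 1 to TSLP 2 (red) and of the TSLP mean to the PBS mean (blue) for each gene, on log2(normalised count + 1). The blue bar is the longest of the 3 only in Smad4, at 0.38, while in Tgfbr3 the red bar reaches 0.91.

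The libraries differed with gene length, and the members were on median longer than other genes, their median length of exons being 6079 bases and that of the tested genes 4466. Among the 10 themselves the log2 fold change had a Spearman's rho of -0.10 with exon length (n = 10 genes from the same libraries), and Smad4, at 3712 bases, was the shortest. Over 2635 genes with a mean normalised count of at least 1000, Spearman's rho with exon length was -0.659 for PBS 1 relative to the other libraries and 0.524 for TSLP relative to PBS (genes are not independent replicates). With this trend removed from each library, the log2 fold change became 0.07 for Skil, 0.08 for Tgfbr2, 0.00 for Tgfbr1, -0.37 for Smad2 and 0.42 for Smad4. The unadjusted p of Smad4 was then 0.0473 and its adjusted p 1.0 by limma. PBS 1 also had the lowest Foxp3, at 222 cpm (reads scaled to the library's total on genes) against 407 to 472 cpm for the other libraries. Of the 8 Treg markers, PBS 1 was the lowest library for 4 (Foxp3, Il2ra, Ikzf2 and Ikzf4) and the highest for 3 (Ctla4, Tnfrsf18 and Capg). The part of gene length or of Foxp3 in the values of the members was not tested further.

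The sorted identity of the cells was read from fixed markers. All 8 Treg markers had reads, with a summed level of 4585 and 5085 cpm in the PBS libraries, against 5131 and 5235 cpm in the TSLP libraries, and Lrrc32 was the most abundant. The 5 markers of conventional T cells all had reads too, with a sum of 771 and 866 cpm in the PBS libraries, against 838 and 861 cpm in the TSLP libraries. Tcf7, which Treg cells of lymphoid tissue also express, led them at 471 to 568 cpm, followed by Il7r at 143 to 204 cpm, and the part of conventional T cells in the values of the members was not tested. Of the 4 CD8 T cell markers, Gzmk had no reads and the sum ranged from 10.8 to 20.1 cpm, led by Cd8b1. Of the 5 B cell markers, Pax5 had no reads and the sum ranged from 0.618 to 10.4 cpm, led by Cd79b. The 6 myeloid markers summed to 61.5 cpm in PBS 1 and 40.1 to 42.4 in the others, led by Cst3, with Adgre1 at 0 reads. Among them, Cd68 was lower in both TSLP libraries, at 5.02 and 1.56 cpm against 15.4 and 6.15 with PBS. So was Itgam, at 0.34 and 0.681 cpm against 2.03 and 1.77, while Cst3 and Lyz2 had overlapping groups. The part of myeloid cells in the values of the members was not tested. Of the 8 stromal and endothelial markers, 5 had no reads (Col3a1, Pdgfrb, Cdh5, Emcn and Dcn), and nearly all of the sum of 120 to 177 cpm was Pecam1, which T cells express too. Pf4, Ppbp and Gp9 of platelets, Ncr1, Klra8 and Tyrobp of NK cells and 4 haemoglobin genes were at 0 reads throughout. The remaining marker of each of these classes had few reads, namely Itga2b (platelets) 9 to 50, Klrb1c (NK cells) 0 to 25 and Alas2 (erythroid cells) 0 to 7. In no marker class did a tested gene have an unadjusted p under 0.05 by limma. In bulk RNA, fewer cells of a type and less RNA per cell cannot be told apart.

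The genes around the receptors and SMADs were read from 6 lists, which hold 107 genes in all. Of the 90 that passed the filter, 1 had an unadjusted p under 0.05 by limma (1.11%, beside the 1.69% of all genes tested) and 0 had an adjusted p under 0.05. Groups did not overlap in 24 of them (26.7%, beside 28.9%), with both TSLP libraries higher in 16 and lower in 8. Ltbp1, Acvr2b and Cdkn2b passed the filter only through the group in which they were high, so the filter partly set their difference. Without them, groups did not overlap in 21 of 87 (24.1%, beside 27.3% of all genes tested with such genes left out in the same way). The median log2 fold change was 0.07, and 0.01 with the length trend removed. It was 0.04 without PBS 1 or without TSLP 1, 0.02 without PBS 2 and 0.11 without TSLP 2, when 61 were higher and 29 lower.

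The single gene was Smad1, which encodes a SMAD of the bone morphogenetic protein (BMP) branch. It had normalised counts of 259 and 137 in the PBS libraries, against 69.7 and 87.8 in the TSLP libraries. Both TSLP libraries lay below both PBS libraries, and the PBS libraries differed from each other more than the TSLP libraries did. Its log2 fold change was -1.26 (standard error 0.51, 95% interval -2.41 to -0.10, unadjusted p = 0.0357 by limma), and -0.80 without PBS 1. Smad5, of the same branch, had normalised counts of 588 and 585 with PBS and 708 and 617 with TSLP, which differ by 0.17 on the log2 scale (0.07 without TSLP 1 and 0.27 without TSLP 2). Smad6, the inhibitory SMAD of that branch, had 4 reads in PBS 2 and 0 in the others, and Smad9 had 0 reads in every library, which allows up to 3 reads each.

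Among 10 tested genes for ligands and their activation, 6 were higher and 4 lower, and 0 had an unadjusted p under 0.05 by limma. The median was 0.04 on the log2 scale, -0.02 without TSLP 1, and 0.03 over the 9 genes other than Ltbp1. Ltbp1, which passed the filter only through the TSLP libraries, had an unadjusted p of 0.0223 by DESeq2 and 0.0505 by edgeR. Lrrc32, which encodes GARP, the anchor of latent TGF-beta on Treg cells, had normalised counts of 15617 and 15341 with PBS and 16702 and 14910 with TSLP. Itgav and Hsp90b1, for the integrin subunit alpha V and the chaperone of GARP and integrins, had log2 fold changes of 0.35 and 0.05. The value of Itgav rested on PBS 1, which had a normalised count of 4056 against 6418 to 6691 in the others, and it was 0.00 without that library. That of Hsp90b1 was 0.16 without PBS 1 and -0.06 without PBS 2. Tgfb1, the main ligand of T cells, had 3546 and 2817 with PBS and 3236 and 2450 with TSLP, with overlapping groups.

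Of 11 tested receptors of the wider superfamily, 7 were higher and 4 lower (median 0.22, and 0.34 over the 10 other than Acvr2b), and 0 had an unadjusted p under 0.05. Acvr2a, Bmpr2 and Nrp1, the most read of them, had log2 fold changes of 0.45, 0.22 and 0.18. All were smaller without PBS 1, at 0.11, -0.09 and 0.06, and the median of the 11 was then 0.06. Of 17 tested SMADs and partners, 12 were higher and 5 lower (median 0.17). The median was 0.01 without PBS 1, with 9 higher and 8 lower, 0.08 without TSLP 1 and 0.30 without TSLP 2. The most read, Foxo1, Ncor1 and Sptbn1, had values of -0.05, -0.00 and 0.44, and that of Sptbn1, a spectrin that acts as a SMAD adaptor, was 0.15 without PBS 1. That of Foxo1 was 0.01 without PBS 1, -0.21 without TSLP 1 and 0.11 without TSLP 2. For Ncor1 it was -0.19 without PBS 1 and 0.19 without PBS 2.

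The 20 genes of SMAD and receptor turnover had 11 higher and 9 lower (median 0.05), and 10 each way without PBS 1 (median -0.01). Usp9x, a deubiquitinase of SMAD4, had normalised counts of 3753 and 7423 in the PBS libraries, against 7987 and 7562 in the TSLP libraries. PBS 1 stood apart from the other libraries, and the log2 fold change of 0.56 was 0.07 without it. Pdpk1 and Usp4 had values of 0.41 and -0.05, and that of Pdpk1 was 0.10 without PBS 1. That of Usp4 was 0.08 without TSLP 1 and -0.17 without TSLP 2. In the TAK1 branch, through which the receptors reach MAP kinases without SMADs, 9 of 14 genes were higher and 5 lower (median 0.10, and 0.06 without PBS 1), with Ppp2ca at -0.12, Rock1 at 0.07 and Tab2 at 0.15. Without PBS 1 these were 0.18, -0.05 and 0.08, so that the first 2 changed sign.

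Genes known to respond to TGF-beta in T cells had 6 higher and 14 lower of 20 tested (median -0.15, and -0.12 over the 19 other than Cdkn2b), and 0 had an unadjusted p under 0.05. The list holds both induced and repressed genes, so the split has no direction for the pathway, and it rested on single libraries. Without PBS 1 it turned to 16 higher and 4 lower (median 0.17), without TSLP 2 to 13 higher and 7 lower (median 0.04), and without PBS 2 it was 3 higher and 17 lower (median -0.53). Junb and Gadd45b, the most read, were higher in replicate 1 than in replicate 2 of both groups. Gadd45b had 16566 and 6629 with PBS and 11194 and 6074 after TSLP, a difference of -0.35 on the log2 scale that became 0.32 without PBS 1. For Junb the value was -0.31, and 0.14 without PBS 1. Foxp3 had a log2 fold change of 0.44 with all libraries and -0.09 without PBS 1. Pmepa1, a feedback inhibitor induced by SMADs, had 1372 and 990.5 with PBS and 1248 and 787 with TSLP, with overlapping groups, and Itgae, which encodes CD103, had 566 and 1145 with PBS and 726 and 1117 with TSLP.

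**Figure D4:**
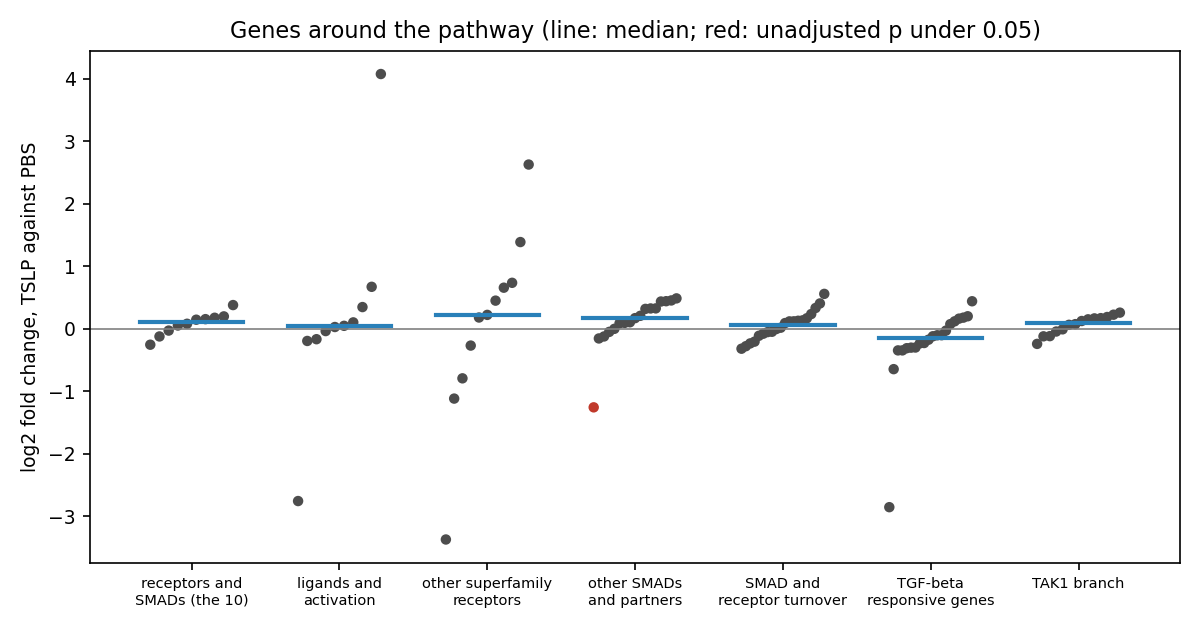
Log2 fold change, TSLP against PBS, of the 10 receptors and SMADs and of each tested gene of the 6 lists (points, sorted within a list; blue line, median; red, unadjusted p under 0.05 by limma). The medians lie between -0.15 (genes that respond to TGF-beta) and 0.22 (other receptors), which became 0.17 and 0.06 without PBS 1, and the single red point is Smad1 at -1.26. Ltbp1, Acvr2b and Cdkn2b, which the filter let through by 1 group alone, are the points at 4.08, -3.37 and -2.85. Ltbp1 had 0 reads in both PBS libraries, so the added 1 sets its point. With up to 3 reads allowed for each 0, the reads give at least 5.4-fold, which covers counting error in the PBS libraries only. The interval of Ltbp1 by limma, -1.19 to 9.34 on the log2 scale, includes 0 (unadjusted p = 0.114 by limma).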

How the data were processed

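RNA from 2 PBS-stimulated and 2 TSLP-stimulated Treg samples had been mapped to mm10 with Hisat2 and counted with HTSeq. The deposited signal is the reads of a gene divided by a DESeq2 size factor, from 0.957 to 1.06 per library. All values (100%) lay within 0.01 of a whole multiple of the library's step, so reads were recovered. The annotation and the strand setting are not given in the sources used here, and the labels and the methods name different extraction reagents. Differences were fitted with limma 3.58.1 in R 4.3.3 on log2(value + 1), with a mean-variance trend. edgeR 4.0.16, DESeq2 1.42.0, other scalings, filters and pseudocounts, a replicate block, removal of the length trend and leaving out each library were alternatives. Exon lengths and positions came from GENCODE M21 (23307 of 24418 names matched). Up to 3 reads are allowed by 0 reads, or 0.255 to 0.292 cpm, for counting error only. The fits were tested on simulated data. The members and lists were chosen with earlier results of these data known. Named are all members, list genes with unadjusted p under 0.05 and the 3 most read of each list, and other genes were chosen after their values were seen.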

Additional observations from a re-analysis of the deposited data

How the results depend on the processing

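Over 17 alternatives, no member reached an adjusted p under 0.05, and Tgfbr2, Smad2, Smad4 and Skil kept their direction in all of them. The count of genes with an adjusted p under 0.05 was 0 in each fit except that with the length trend removed and the replicate number as a block, which called 3 (Lars2, Gm4759 and Zbed6, named after their values were seen). In this fit the unadjusted p of Smad4 was 0.0344 by limma. The count at an unadjusted p under 0.05 was 192 in the reported fit, 358 without a filter, 437 with the length trend removed and the replicate block, and 79 to 1858 on leaving out a library, where the lone sample is assumed to vary like the other group. The labels do not say whether samples of the same replicate number were handled together. Deviations of same-numbered samples had a correlation of 0.00. This was taken before the length trend was removed, so it cannot settle whether they were paired. The block alone left the median of the members at 0.11, while removing the length trend, with or without the block, gave 0.046. Leaving out a library moved this median from 0.005 to 0.241. The sign of a member turned in 10 cases. Tgfbr1 was -0.002 with the length trend removed, with or without the block. Leaving out a library gave -0.20 to 0.31 for Tgfbr1, -0.38 to 0.54 for Tgfbr3, -0.11 to 0.39 for Smad3, -0.28 to 0.23 for Smad7, -0.014 to 0.322 for Ski and -0.327 to 0.082 for Tgif1. The cause of these turns was not tested. Skil had an unadjusted p of 0.0498 by limma without PBS 2. With the longest transcript as the length, the levels of Tgif1 and Skil moved by more than their spread. At this depth the fewest reads on a member were 149, for Tgfbr3.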

Other observations

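Some receptors and ligand-binding genes with few reads, chosen after their values were seen, had groups that did not overlap, as 28.9% of all genes tested did. Bmpr1a, a type I receptor for BMPs, had 32 and 49 reads in the PBS libraries, against 106 and 103 in the TSLP libraries, with a log2 fold change of 1.39 (unadjusted p = 0.0547 by limma). Acvr1b, a type I receptor for activin, had 116 and 151 reads in the PBS libraries, against 283 and 170 in the TSLP libraries. Acvr2b, a type II activin receptor, went the other way, at 26 and 30 reads in the PBS libraries, against 7 and 0 in the TSLP libraries. It passed the filter on low values only through the PBS libraries, where it was high.

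Ltbp1, which encodes a protein that binds latent TGF-beta in the matrix, had 0 reads in both PBS libraries, 15 in TSLP 1 and 17 in TSLP 2. It passed the filter only through the TSLP libraries. The non-overlap of these 2 genes is therefore partly set by the filter. Tgfb3, a minor ligand of the family, had 38 and 32 reads in the PBS libraries, 28 in TSLP 1 and 0 in TSLP 2. Eng, an endothelial co-receptor, had 0 reads in every library.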
